A study of Prunus persica with 9 samples.

Results

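miR171a (ENSRNA049996592) and miR171c (ENSRNA049996633) are the peach miR171 genes described here. They were chosen by their gene identifiers and are 2 of the 210 pre-miRNA genes of *Prunus persica* in the deposited table. Both belong to a list of genes that the study selected on these same samples, so their direction here is no independent evidence. Both were among the 135 genes abundant enough to be tested, which had a mean of at least 5 normalized counts over the 9 libraries. Small RNA was sequenced from leaf blades of juvenile, in vitro produced plants of the variety Big Top before treatment (t0) and 1 h or 24 h after PpPep2, in triplicate (n = 3). PpPep2, a peach plant elicitor peptide of the kind that plants perceive as a danger signal, was sprayed at 1 μM on both leaf surfaces. On every plant the treatment covered 5 young, fully grown leaves, blades were frozen without the central vein, and each replicate pooled several plants. The t0 control is labelled as a mock treatment and is described by the study as untreated. No control was taken at 1 h or 24 h, so a change with PpPep2 and a change with time, handling or spraying cannot be told apart.

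miR171 is a conserved plant miRNA family. In *Arabidopsis*, miR171 directs cleavage of transcripts for GRAS transcription factors of the HAIRY MERISTEM or SCARECROW-LIKE group, which act in shoot meristem maintenance and in the control of chlorophyll synthesis and branching. Its abundance is therefore one influence on how much of these mRNAs is left to be translated, and no target mRNA was measured here. Several MIR171 genes of one plant can give mature miRNAs with the same letters.

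This is the case for the peach pair. The mature sequences listed with the study are shown because they decide how far the reads of the genes can be told apart. Each is written 5′ to 3′ with the seed, bases 2 to 8, in capitals.
ppe-miR171a: uGAUUGAGccgugccaauauc
ppe-miR171c: uGAUUGAGccgugccaauauc
Both are 21 nt long and identical at all 21 positions. The list places that of miR171a on the 3p arm and that of miR171c on the 5p arm of the precursor. Precursor sequences were not used here, so these arms were not checked. Among the 39 sequences listed for 33 genes, those of these 2 genes are the only ones with this seed. The list covers only genes that the study had selected, and the other pre-miRNA genes, whose mature sequences were not compared, may share the seed and the reads. The nearest other listed sequence, that of ppe-miR167a, differs at 12 positions. A target paired at every base would contain the full complement, with the letters opposite the seed in capitals.
complement of miR171: gauauuggcacggCUCAAUCa

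A read of the mature miRNA fits both genes, and a read that maps to several genes is divided between them by RSEM, the program that made the counts. How many reads were divided cannot be read from these values. The sum of the genes does not depend on a division within the pair, though it would on one with other genes, whereas the level of each gene and the share of miR171c do. The deposited values are normalized counts, in which each library's counts carry a scaling factor of their own. In every library all values above 0 were whole multiples of the smallest step, within 0.01 normalized counts, and this step was read as the value of 1 read. On this reading the libraries held 115519 to 546709 reads on miRNA genes, and 1 read was worth 0.49 to 2.84 normalized counts. Each library had fewer values of up to 20 reads than the 100 required before reads count as recovered, so read numbers are inferred. Control replicate 2 had the fewest reads. Intervals given below for single libraries, shares and pooled ratios are exact 95% intervals that cover counting error only. Amplified reads are not independent molecules, and the division of reads adds an error of its own. The 95% intervals of log2 fold changes come from limma. They rest on the spread between libraries, which limma draws toward a trend fitted over all genes tested. The leaf label was not checked, because no marker list for leaf tissue was used.

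miR171a was a gene of intermediate level, 63rd of the 210 genes by its mean. Its normalized counts were 76.5, 76.8 and 69.3 at t0, 89.3, 101.7 and 106.5 at 1 h, and 132.8, 99.4 and 100.7 at 24 h, in the order of replicates 1, 2 and 3. All libraries after PpPep2 were above all control libraries, and the 1 h and 24 h libraries overlapped. The lowest value after PpPep2 was 89.3 normalized counts, in replicate 1 at 1 h, against 76.8 for the highest control. The means were 74.2 ± 4.23 at t0, 99.2 ± 8.86 at 1 h and 111 ± 19.0 at 24 h (SD, n = 3 each). These values stand on 123, 27 and 142 reads in the control libraries, on 110, 74 and 65 reads at 1 h and on 81, 38 and 80 reads at 24 h. The SD of the controls was 0.43 times the SD that counting alone would give, while at 24 h the ratio was 1.33. The small spread among the controls was therefore below what their read numbers would usually give, and replicate 1 at 24 h stood above the other libraries of its group.

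miR171c was a gene of low level, 113th of the 210 genes. Its normalized counts were 4.98, 0 and 5.86 at t0, 16.2, 9.62 and 21.3 at 1 h, and 11.5, 20.9 and 15.1 at 24 h, for replicates 1, 2 and 3. Again all libraries after PpPep2 were above all controls, and the 1 h and 24 h libraries overlapped. The lowest library after PpPep2, replicate 2 at 1 h, had 9.62 normalized counts, against 5.86 in the highest control. The means were 3.61 ± 3.16 at t0, 15.7 ± 5.86 at 1 h and 15.8 ± 4.76 at 24 h (SD, n = 3 each).

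Few reads lie behind the values of miR171c. The control libraries had 8, 0 and 12 reads, the 1 h libraries 20, 7 and 13 reads and the 24 h libraries 7, 8 and 12 reads. Summed over replicates this makes 20 control reads, 40 reads at 1 h and 27 reads at 24 h. The controls included the 2 deepest libraries of the series, so the number of reads at 24 h was close to that at t0 although the normalized level was higher. The single-library intervals were wide. They ran from 2.15 to 9.80 normalized counts in control replicate 1 and from 3.03 to 10.2 in control replicate 3, and from 4.62 to 23.7 in replicate 1 at 24 h. The SD between libraries was 1.23, 1.31 and 0.90 times that of counting alone at t0, 1 h and 24 h. The spread of miR171c between replicates was thus close to its counting error.

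The 0 in control replicate 2 needs to be read against the depth of that library. One read was worth 2.84 normalized counts there, and a floor of 3 reads corresponds to 8.53 normalized counts. At the level of the other controls, 5.47 normalized counts, 1.92 reads would be expected in this library. At the mean levels of 1 h and 24 h, 5.53 and 5.57 reads would be expected. The library therefore allows a level as high as in the other controls, and its depth cannot show that miR171c was absent.

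The sum of the genes was 81.5, 76.8 and 75.2 normalized counts at t0, 105.6, 111.3 and 127.8 at 1 h, and 144.3, 120.3 and 115.8 at 24 h, for replicates 1, 2 and 3. The controls lay close together, and every library after PpPep2 was above them. The SD of the controls was 0.32 times the SD that counting alone would give, against 0.96 at 1 h and 1.01 at 24 h. The controls thus lay closer together than their read numbers would usually give. The means were 77.8 ± 3.26 at t0, 115 ± 11.5 at 1 h and 127 ± 15.4 at 24 h (SD, n = 3 each). For miR171a and the sum the order of the means was t0, 1 h and 24 h. The means of miR171c at 1 h and 24 h, 15.7 and 15.8, were nearly equal. Weighted by depth, its levels were 15.6 at 1 h and 15.1 at 24 h. The neighbours 1 h and 24 h did not differ beyond their spread.

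**Figure D1:**
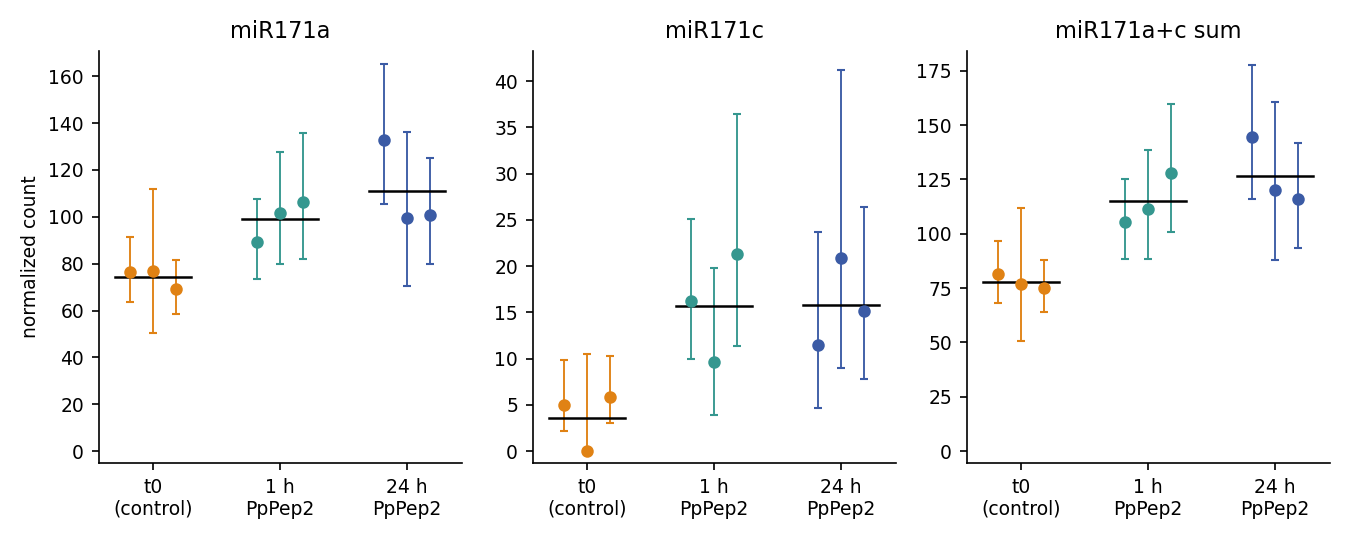
Normalized counts (y axis, linear, a separate scale in each panel) of miR171a, miR171c and their sum in each library at t0, 1 h and 24 h, with replicates 1, 2 and 3 from left to right in each group. Points are libraries, vertical lines are exact 95% counting intervals and horizontal lines are group means. In each panel the points after PpPep2 lie above those at t0, the lines of miR171c are long relative to its level, and its point for control replicate 2 is at 0.

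Several other genes were separated from the controls in the same way. At 24 h, 27 of the 135 genes tested (20%) had all libraries above all controls, and at 1 h 12 of 135 (8.89%) did. Both genes were among the 8 of 135 (5.93%) that were above the controls at both times. These included miR7122a and miR7122b, miR396b, which targets GROWTH-REGULATING FACTOR transcripts in *Arabidopsis*, and 3 genes without a name in the study's list. The separation of the groups also held when the libraries were put on the same total over miRNA genes. In CPM over miRNA genes, miR171a had 274 to 370 at 24 h and 277 to 325 at 1 h, against 234 to 260 at t0. miR171c had 32.0 to 57.6 at 24 h and 26.2 to 59.1 at 1 h, against 0 to 21.9 at t0. Scaling to the same upper quartile left the groups separate as well. The median log2 fold change of all genes tested was then 0.37 at 24 h and 0.39 at 1 h. With equal totals it was -0.30 and -0.20. How many of all genes were separate under these 2 scalings was not counted.

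The comparison at 24 h asks which miRNAs differed from the control 1 day after the peptide. It was tested with limma on log2(normalized count + 1), and a gene was called with a Benjamini-Hochberg adjusted p under 0.05. The added 1 makes fold changes of low genes smaller, but the single 0 of miR171c, in control replicate 2, makes its fold change larger. Without that library the log2 fold change of miR171c was 1.36 in place of 2.25. At 24 h, 7 of the 135 genes (5.19%) were called higher, and neither miR171 gene was among them. miR171a had a log2 fold change of 0.56 (standard error 0.19, 95% interval 0.13 to 0.99, adjusted p = 0.0729 in limma). For miR171c it was 2.25 (standard error 0.73, 95% interval 0.58 to 3.91, adjusted p = 0.0643 in the same limma fit). The sum rose at 24 h by 0.69 on the log2 scale (standard error 0.18, 95% interval 0.29 to 1.09, adjusted p = 0.0335 in limma). In that fit the pair stood as 1 of 134 features, of which 8 (5.97%) were called higher. The residual SD on the log2 scale was 0.16 for miR171a, 0.98 for miR171c and 0.13 for the sum, against a median of 0.42 over all genes tested, and 18 genes had a larger one than miR171c.

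The call of the sum was not stable. It was kept without replicate 1 or replicate 3 of 1 h (adjusted p as low as 0.0211 in limma) and lost without each of the other 7 libraries, where the log2 fold change was 0.60 to 0.75 and the adjusted p reached 0.118. It was also lost with no minimum mean (adjusted p = 0.0591 in limma) and with libraries of the same total, where the log2 fold change was 0.40 (adjusted p = 0.203 in limma). That scaling moved the median log2 fold change of all genes tested to -0.30, against -0.013 with the authors' scaling, while the same upper quartile moved it to 0.37. Relative to this median the sum differed by 0.70 under both the authors' scaling and equal totals, and by 0.76 under equal upper quartiles. miR171a differed by 0.58, 0.57 and 0.60 and miR171c by 2.26, 2.29 and 2.06 from the median under these scalings. Since a scaling shifts all genes by nearly the same amount, these differences are close to fixed by construction and say nothing about the stability of the call.

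At 1 h the log2 fold changes were 0.41 (95% interval -0.020 to 0.84, adjusted p = 0.354) for miR171a and 2.21 (0.55 to 3.88, adjusted p = 0.202) for miR171c in limma with Benjamini-Hochberg adjustment. The sum had 0.55 (0.15 to 0.95, adjusted p = 0.167, limma). No gene was called higher at 1 h (0% of 135, and 0% of 134 in the table with the sum), 1 gene was called lower, and 17 had an unadjusted p under 0.05, so few genes passed in this comparison. With both times pooled against t0, miR171a had a log2 fold change of 0.49 (0.11 to 0.86, adjusted p = 0.0887), miR171c 2.23 (0.79 to 3.67, adjusted p = 0.0550) and the sum 0.62 (0.28 to 0.97, adjusted p = 0.0377) in limma with Benjamini-Hochberg adjustment. In this comparison 6 of 135 genes (4.44%) were called higher, and 7 of 134 features (5.22%) in the table with the sum. The call of the sum was kept without replicate 1 of 1 h and lost without each of the other 8 libraries, with adjusted p of up to 0.154 in limma. It was also lost with the same total (adjusted p = 0.191), no minimum mean (0.0582) and no trend (0.0504) in limma.

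Between 24 h and 1 h the log2 fold change was 0.15 (-0.28 to 0.58, adjusted p = 0.702) for miR171a, 0.036 (-1.63 to 1.70, adjusted p = 0.976) for miR171c and 0.14 (-0.26 to 0.54, adjusted p = 0.699) for the sum in limma with Benjamini-Hochberg adjustment. No gene was called in this comparison (0% of 135), and 18 had an unadjusted p under 0.05. The interval of miR171c allows a difference of more than 1 log2 unit in either direction, so the times are not shown to be alike for this gene.

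**Figure D2:**
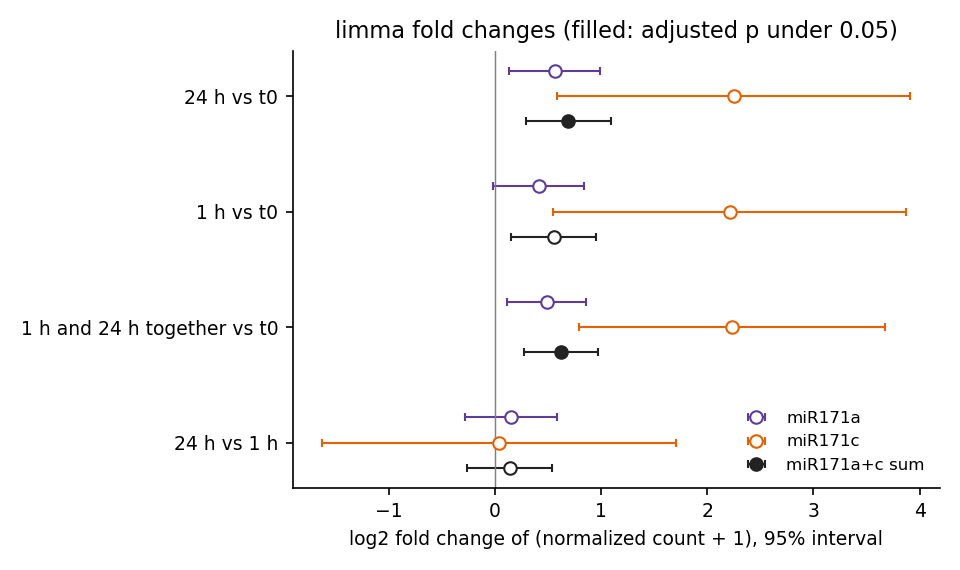
Log2 fold changes (x axis, of normalized count + 1) in 4 comparisons (y axis) for miR171a, miR171c and their sum. Points are limma estimates, lines their 95% intervals and filled points have an adjusted p under 0.05. The sum is filled at 24 h and with the times together, and miR171c has the widest intervals, from -1.63 to 1.70 between 24 h and 1 h.

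The size of the change of miR171c depended on how its single 0 was treated. The means gave a ratio of 4.38 between 24 h and t0, to which control replicate 2 contributed as a 0 with the same weight as the deeper libraries. Reads pooled over the libraries, which weight each library by its depth, gave a ratio of 3.03 (exact interval 1.64 to 5.69) at 24 h and of 3.12 (1.78 to 5.63) at 1 h. Without control replicate 2 the log2 fold change at 24 h was 1.36 (adjusted p = 0.0953 in limma), and at 1 h it was 1.32 (adjusted p = 0.326). With values under 3 reads set to 3 reads it was 1.16 at 24 h (adjusted p = 0.0587) and 1.13 at 1 h (adjusted p = 0.155). With 0.5 added before taking logs it was 2.61 at 24 h (adjusted p = 0.0873 in limma), and with 5 added it was 1.33 (adjusted p = 0.0374). All of these were above 0, between 1.16 and 2.61 on the log2 scale at 24 h. The pooled ratios of miR171a were 1.53 (1.27 to 1.84) at 24 h and 1.33 (1.12 to 1.58) at 1 h. For the sum the pooled ratio was 1.62 (1.36 to 1.93) at 24 h and 1.44 (1.23 to 1.70) at 1 h. The intervals of pooled ratios cover counting error only and leave out the spread between libraries. For miR171a at 1 h the ratio interval lay above 1, while the limma interval of the log2 fold change, -0.020 to 0.84, included 0. The other limma intervals against t0 at these times lay above 0.

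**Figure D3:**
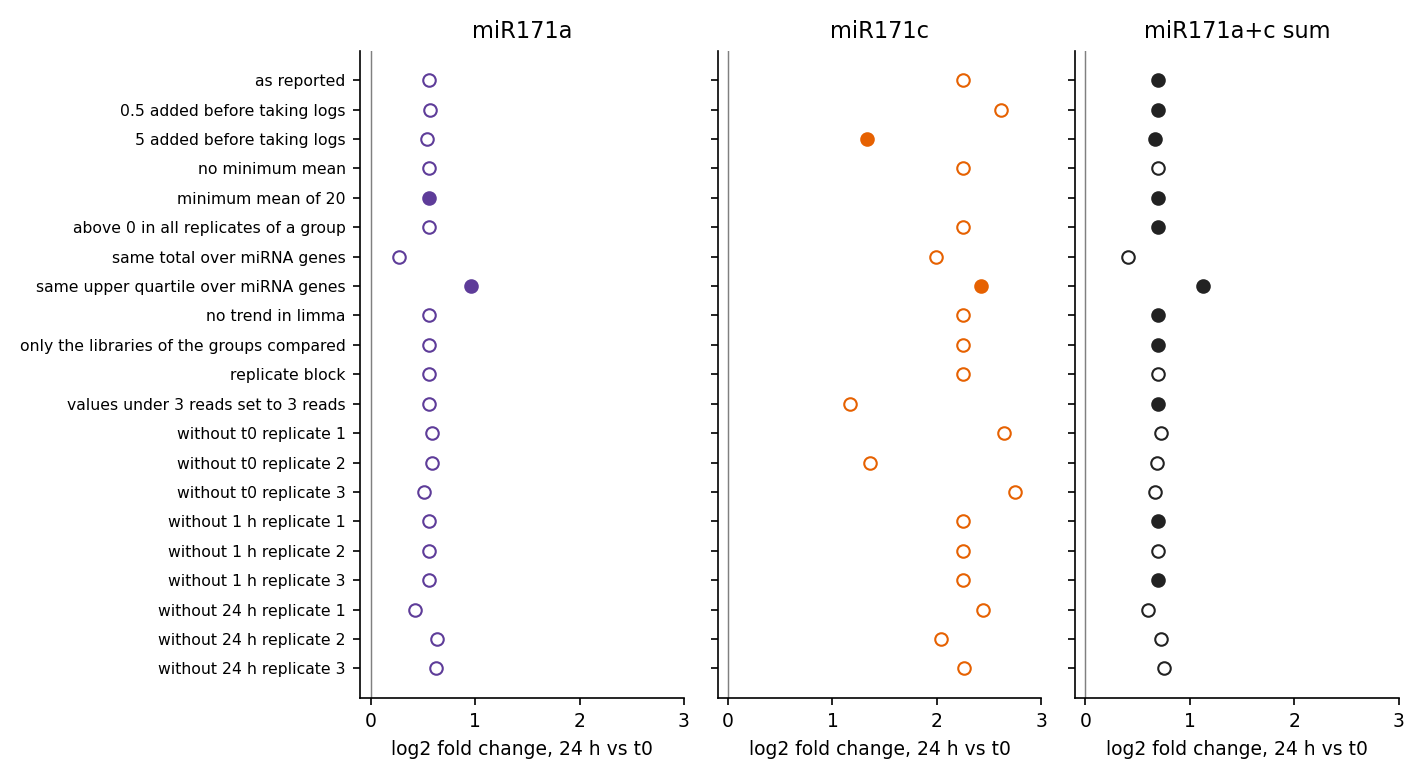
Log2 fold changes at 24 h against t0 (x axis) of miR171a, miR171c and their sum as reported and under each alternative way of processing (y axis). Filled points have an adjusted p under 0.05 in limma, and miR171c has no point at a minimum mean of 20, where it was not tested. All points lie above 0, those of miR171c spread from 1.16 to 2.74, and those of the sum are open in most of the settings that leave out a library.

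The share of miR171c in the reads of the pair compares the genes within a library, so the scaling of libraries does not enter. The share was 6.11% (8 of 131 reads), 0% (0 of 27 reads) and 7.79% (12 of 154 reads) at t0. At 1 h it was 15.4% (20 of 130 reads), 8.64% (7 of 81 reads) and 16.7% (13 of 78 reads), and at 24 h 7.95% (7 of 88 reads), 17.4% (8 of 46 reads) and 13.0% (12 of 92 reads). All shares after PpPep2 were above those of the controls, with a gap of only 0.16 percentage points between replicate 1 at 24 h and control replicate 3. The 0 of 27 reads in control replicate 2 has an exact 95% upper limit of 12.8%, and a floor of 3 reads corresponds to a share of 11.1%, so both cover replicate 2 at 1 h and replicate 1 at 24 h.

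The mean share was 13.2% ± 4.07 (SD, n = 6) in the 1 h and 24 h libraries together and 4.64% ± 4.10 (SD, n = 3) at t0, a difference of 8.55 percentage points. With reads pooled over libraries, so that depth weights each, the shares were 13.0% (67 of 515 reads) and 6.41% (20 of 312 reads). For the difference of the means, the 2-sided exact permutation p was 0.0238, the smallest that 6 against 3 libraries allow, and 0.0952 after Benjamini-Hochberg adjustment over the 4 comparisons of the share. At 24 h alone the mean was 12.8% ± 4.72 and at 1 h alone 13.6% ± 4.31 (SD, n = 3 each), each with an exact permutation p of 0.1 against t0 (0.133 adjusted), the smallest that 3 against 3 libraries allow. Between 24 h and 1 h the share differed by -0.77 percentage points (exact permutation p = 0.9). Without any one control the difference was 6.23 to 10.1 percentage points, with p = 0.0714, the smallest that 6 against 2 libraries allow in the exact test. Leaving out a library of 1 h or 24 h instead gave an exact permutation p of 0.0357 each time, again the smallest that the remaining libraries allow. These p-values repeat the same separation of the shares. The share rests on the division of reads between genes with the same mature sequence, and the part of that division in the difference was not tested.

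**Figure D4:**
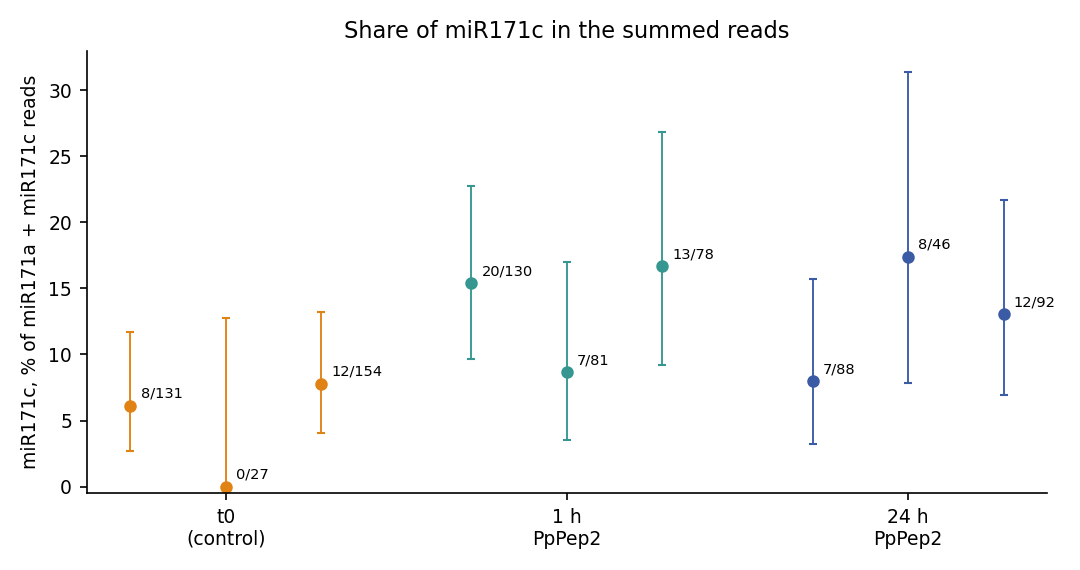
Share of miR171c in the reads of miR171a and miR171c together (y axis, percent) in each library at t0, 1 h and 24 h, with replicates 1, 2 and 3 from left to right. Points are libraries with reads of miR171c over reads of the pair beside them, and lines are exact 95% binomial intervals. The points after PpPep2 lie between 7.95% and 17.4%, above the controls at 0% to 7.79%, and the intervals of all groups overlap.

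miR156g and miR156h, the SPL-targeting pair of the same list, also share 1 mature sequence. The share of miR156g in that pair was 0%, 38.2% and 44.6% at 1 h and 67.6%, 9.28% and 47.2% at 24 h, against 0.31%, 0% and 0.25% at t0, so at 1 h and 24 h, but not at t0, it varied more between replicates than that of miR171c. Their sum had 358 ± 117.5 normalized counts at 24 h and 381 ± 90.8 at 1 h, against 694 ± 172.5 at t0 (SD, n = 3 each). It was thus lower after PpPep2, where the sum of the miR171 genes was higher. No test of the difference between the pairs was run.

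Over the 9 libraries, the level of miR171a on the log2 scale was most like those of miR482f (Pearson r = 0.91), a member of a family that targets resistance gene transcripts, miR159 (r = 0.91), which targets MYB transcripts in *Arabidopsis*, and miR7122a (r = 0.89). That of miR171c was most like ENSRNA049997219 (r = 0.89), ENSRNA049996411 (r = 0.84) and ENSRNA049996450 (r = 0.83), for which no name was given. The last 2 of them are also genes of few reads, with means of 12.6 and 6.26 normalized counts at 24 h, against 4.03 and 2.46 at t0. The sum was most like miR7122b (r = 0.91), miR7122a (r = 0.91) and miR482f (r = 0.87). miR171a and miR171c themselves had r = 0.58, and miR171c stood 27th among the 134 genes ranked by likeness to miR171a. These correlations describe 9 libraries that share their groups and their scaling. In genes of few reads, counting error and the unlike depth of the libraries can change them, which was not tested.

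A further 8 miRNA genes named by the study are known from *Arabidopsis* to target transcription factors. Of these 8, 1 was called higher and 3 lower at 24 h, with a median log2 fold change of -0.46, against -0.013 over all 135 genes tested, of which 7 were called higher and 12 lower. The list was drawn from genes that the study had selected on these samples and is no independent evidence of a direction. miR396b had 14798 ± 3298 normalized counts at 24 h and 8203 ± 669 at t0 (SD, n = 3 each), 0.83 higher on the log2 scale (adjusted p = 0.0363 in limma).

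The genes that were called lower were miR156h (log2 fold change -1.86), miR166e (-1.69), which targets HD-ZIP III transcripts, and miR169d (-2.28), which targets NF-YA transcripts, with adjusted p of 0.0178, 0.0363 and 0.0144 in limma. miR156g had 5.64 (adjusted p = 0.0643) with a residual SD of 2.68, miR172b, which targets AP2 transcripts, -1.41 (adjusted p = 0.122), miR159 0.61 (adjusted p = 0.0999) and miR167a, which targets ARF transcripts, 0.49 (adjusted p = 0.286) in limma. The log2 fold change of miR171a at 24 h, 0.56, thus lay between those of miR159 and miR167a. At 1 h none of the 8 was called in limma, against 1 of all 135 genes tested. An unadjusted limma p under 0.05 was found for 4 of the 8, against 17 of the 135. The 8 come from genes selected on these samples, so this count is a description. Their median log2 fold change was 0.047, against -0.033 over all genes. Among the 135 genes tested, miR171a was 28th by log2 fold change at 24 h and 26th at 1 h.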

How the data were processed

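Reads of 9 small RNA libraries were trimmed by the authors with Trim Galore 0.6.6, mapped with STAR 2.5.3a to Prunus_persica_NCBIv2.38, quantified with RSEM 1.3.0 (seed length 16, Ensembl Plants release 48) and normalized with DESeq2 1.26.0. The authors deposited a signal per pre-miRNA gene, namely normalized counts rounded to 2 decimals, and 16 of the 210 genes were at 0 in all libraries. Groups and replicates came from the sample labels. The members, lists, tests and rule for named genes were chosen with earlier results of these data known. The rule names the members, the 8 regulators, the miR156g and miR156h pair and the 3 genes most correlated with each member and the sum. The other genes above the controls at both times were named after their values were seen.

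log2(normalized count + 1) was fitted with limma 3.58.1 (R 4.3.3, empirical Bayes trend, no block) over all libraries for genes with a mean of at least 5, with Benjamini-Hochberg adjustment over all genes tested. The sum replaced both genes in a table of 134 features. Between 64 and 80 low values per library were whole reads, fewer than the 100 required before reads count as recovered, so no count model was run. Reads served to describe depth and gave the counting intervals, SD ratios, pooled ratios, expected reads and printed shares. They entered tests only in 2 alternatives, the floor of 3 reads and a log2 ratio of the genes with 0.5 read added. Shares were compared by exact permutation tests. Python 3.11.15 was used for the rest, with scipy 1.17.1, numpy 2.4.6 and pandas 2.3.3, and matplotlib 3.10.9 for plots. The alternatives were other added constants, minimum levels and scalings, no trend, only the libraries compared, a replicate block, a floor of 3 reads, and each library left out in turn. The reference table held 0 of the 210 identifiers, so no genome positions are given. The study describes its replicates as biological, each a pool of plants, and the labels only number them, so p-values measure the spread between these samples.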

Additional observations from a re-analysis of the deposited data

How the results depend on the processing

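The direction of every comparison with t0 was kept under all alternatives run. Calls were not. With the same upper quartile over miRNA genes, miR171a passed at 24 h (log2 fold change 0.96, adjusted p = 0.0287 in limma) and with the times together (0.90), and miR171c passed at 24 h (2.43, adjusted p = 0.0441) and together (2.42). miR171a also passed at 24 h with a minimum mean of 20 (0.56, adjusted p = 0.0457). With 5 added before taking logs miR171c passed at 24 h (1.33, adjusted p = 0.0374) and together (1.32), and with values under 3 reads set to 3 reads it passed together (1.15). Over the alternatives with all libraries the adjusted p at 24 h was 0.0287 to 0.416 for miR171a and 0.0374 to 0.102 for miR171c. The call of the sum was lost with no minimum mean (0.69 at 24 h, 0.62 together), with the same total (0.40 and 0.40) and, together only, with no trend in limma (0.62). Leaving out 1 library at a time, the sum was 0.60 to 0.75 at 24 h and 0.57 to 0.65 together, and the share of miR171c differed by 6.23 to 10.1 percentage points. miR171c between 24 h and 1 h turned to -0.079 with the same total and ranged from -0.26 to 0.28 with a library left out, with the lowest values without replicate 2 of 1 h (-0.26) and without replicate 2 of 24 h (-0.17). The cause of these changes was not tested.

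With the replicate number as a block the sum had the same log2 fold changes, 0.69 at 24 h and 0.62 together, and lost both calls (adjusted p = 0.0721 and 0.0817 in limma). No other call of the pair changed with the block, and 10 genes in place of 19 were called at 24 h. The labels do not say that the numbers pair the samples. Same-numbered libraries had correlations of -0.41 to 0.17 in their deviations from the group means, and 3 of 9 such pairs were over 0.1. The other pairs of libraries had -0.37 to 0.39. With 3 replicates per group these values cannot show whether the numbers carry a pairing. The number of genes called at 24 h was also 29 with the same upper quartile, 12 with no trend, 31 with only the libraries compared and 0 to 35 with a library left out (0 in limma without control replicate 1 or 3, with 37 genes at an unadjusted p under 0.05 in each case, and 35 without replicate 1 of 1 h). At 1 h it was 1, with 2 at the same total, 4 at the same upper quartile and 0 to 18 with a library left out, the highest without replicate 1 of 1 h. The 2 planned count models were not run. A minimum mean of 20 left miR171c untested, and the times together have no fit with only the libraries compared. Depth limits miR171c, which had 0 to 20 reads per library.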
